A study of Mus musculus with 16 samples.

Results

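The mouse genes named Zfp and a number encode zinc finger proteins, and 170 of the 9614 genes in the table carry such a symbol. The members were all genes whose symbol is Zfp followed by digits alone. Zfp36, an RNA-destabilizing protein of another finger type, was left out, and 13 further symbols that carry a letter or suffix after Zfp were not counted. Their polyadenylated RNA was sequenced in BMDM, which are macrophages obtained by culture of bone marrow, here of C57BL/6 males aged 8 weeks. The WT was LysM-Cre:NELF-B wt/wt and the NELF-B KO was LysM-Cre:NELF-B fl/fl, so the Cre was carried by both genotypes and the KO removes NELF-B, a subunit of the negative elongation factor that holds paused RNA polymerase II, in myeloid cells. Each genotype had 2 untreated libraries, 3 after 1 h of LPS at 10 ng/ml and 3 after 1 h of LPS at 10 ng/ml with Dex, a synthetic glucocorticoid, at 100 nM. The 16 libraries came from 3 WT and 3 KO mice, with the letters A, B and C in either genotype, and mouse C of each genotype had no untreated library.

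Most Zfp proteins fold short zinc-binding loops of the C2H2 type, arranged in tandem, each of which can contact a few bases of DNA. A large branch also carries a Krüppel-associated box (KRAB), which recruits the corepressor Trim28 and the histone methyltransferase Setdb1 and is known for the silencing of retroelements. These genes sit in clusters that arose by duplication, and the mRNAs of zinc finger genes as a group are known to be short-lived. In the GENCODE annotation of GRCm38 all 170 members were found, 1 of them through a synonym. A search of the translated coding sequences found 3 or more C2H2 fingers in 151 members, 1 or 2 in 14 and none in 5. The median was 10 fingers and the highest number was 40. A KRAB sequence pattern was found in 77 members. The members lay on 20 chromosomes, with 44 on chromosome 7 and 24 on chromosome 17.

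The libraries held 25000000 to 49700000 reads, recovered from the equal steps of the low values. The lowest count of any member in any library was 17 reads. Nelfb was lower in every KO library (3.27 to 4.38 log2 CPM) than in every WT library (5.59 to 6.21). Of 9 macrophage markers, 8 were in the table, with a summed level of 8272 to 14321 CPM over the libraries. T cell and mast cell markers were not in the table. Of the other lists, 1 of 7 neutrophil markers (S100a8), 1 of 4 B cell markers (Cd79b), 1 of 3 dendritic cell markers (Ccr7) and 3 of 3 fibroblast markers were, with sums of 5.46 to 41.5, 13.4 to 39.7, 0.46 to 10.1 and 33.5 to 115 CPM. Between the untreated and LPS means Cd79b went from 34.2 to 18.8 CPM in the WT and from 28.7 to 22.4 in the KO, the macrophage sum from 10412 to 12532 and from 12487 to 13977, and the fibroblast sum from 51.2 to 74.0 and from 68.1 to 85.0. The part of these markers in the Zfp changes was not tested. The untreated library of WT mouse A stood apart. Its correlation with the other libraries over all genes was 0.83 to 0.909, against 0.924 to 0.993 among the others, and the Zfp genes took 0.25% of its reads against 0.384% to 0.394% in the other 3 untreated libraries. The counts of WT members changed with LPS are given with and without it, and the motif shares and the counts of related families only with it.

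The Zfp genes took few reads each. The median member had a mean of 3.28 log2 CPM over the libraries, against 5.05 for all genes, and 17.9% of all genes lay below it. Per kb of exon, the highest level was that of Zfp263, a DNA-binding factor, at 32.9 CPM per kb, followed by Zfp703 with 24.0, Zfp706 with 20.3, Zfp106, which encodes an RNA-binding protein, with 19.7 and Zfp710 with 18.7. Not divided by length, the most reads fell on Zfp106 (mean 7.68 log2 CPM), Zfp263 (7.12), Zfp91, an E3 ubiquitin ligase of the noncanonical NF-κB pathway (7.11), Zfp710 (6.99) and Zfp207, a spindle assembly factor (6.78). The fewest fell on Zfp870, at 0.98 log2 CPM.

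The first question was how the Zfp genes changed within 1 h of LPS, the endotoxin of Gram-negative bacteria, which macrophages sense through a Toll-like receptor. In WT BMDM 40 of the 170 Zfp genes fell and 8 rose with LPS (limma on all 16 libraries, FDR under 0.1 and over 1.5-fold). Over all genes the same rule called 3.14% lower and 6.01% higher, so that 23.5% of the Zfp genes against 3.14% of the table fell, while 4.71% rose. In the KO 34 fell and 4 rose (20% and 2.35%), where 1.24% of all genes were lower and 3.08% higher. The members had a median log2 change of -0.21 (WT) and -0.36 (KO), against 0.02 and -0.01 over all genes. Since CPM is a share of the reads, these are changes relative to other RNA, and in these bulk samples fewer cells of a type and less RNA per cell cannot be told apart.

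Without the untreated library of WT mouse A, 29 members fell and 4 rose in the WT, 17.1% and 2.35% of them, where 1.23% and 3.09% of all genes were called. The median change of the members was then -0.34, close to that of the KO. Of the 40 members that fell with all libraries, 21 also fell without it, and 8 others joined them. With only mouse A left among the untreated WT libraries, 49 fell and 41 rose (28.8% and 24.1%, against 22% and 24.6% of all genes). The loss of the LPS library of WT mouse C left 25 that fell (14.7%, against 1.69% of all genes). The number that rose in the WT also fell to 5 without the LPS library of mouse A and to 4 without that of mouse C. In the KO, 16 members fell (9.41%, against 0.468% of all genes) and 2 rose without the untreated library of mouse A, and 21 fell (12.4%, against 0.51%) without that of mouse B. With the animal as a block, 49 fell and 15 rose in the WT (9.11% and 11.8% of all genes were called) and 55 fell and 4 rose in the KO (2.12% and 4.04% of all genes). Fitted to the 5 libraries of a comparison alone, where the spread rests on these libraries, 3 members fell and 2 rose in the WT (1.76% and 1.18%, against 0.0832% and 1.77% of all genes) and 35 fell and 4 rose in the KO (20.6% and 2.35%, against 1.23% and 3.41%).

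Measured within each mouse, the median change of the Zfp genes from untreated to LPS was -0.10 in WT mouse A, -0.31 in WT mouse B, -0.31 in KO mouse A and -0.46 in KO mouse B. In the last 3 of these mice 78.2%, 78.8% and 80% of the members had a change below 0, against 54.7% in WT mouse A. In all 4 mice 81 members (47.6%) were lower with LPS, where 18.7% of all genes were, and 17 (10%) were higher, where 21.9% of all genes were. Decreases outnumbered increases in both genotypes, and least so in the mouse whose untreated library stood apart.

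**Figure D1:**
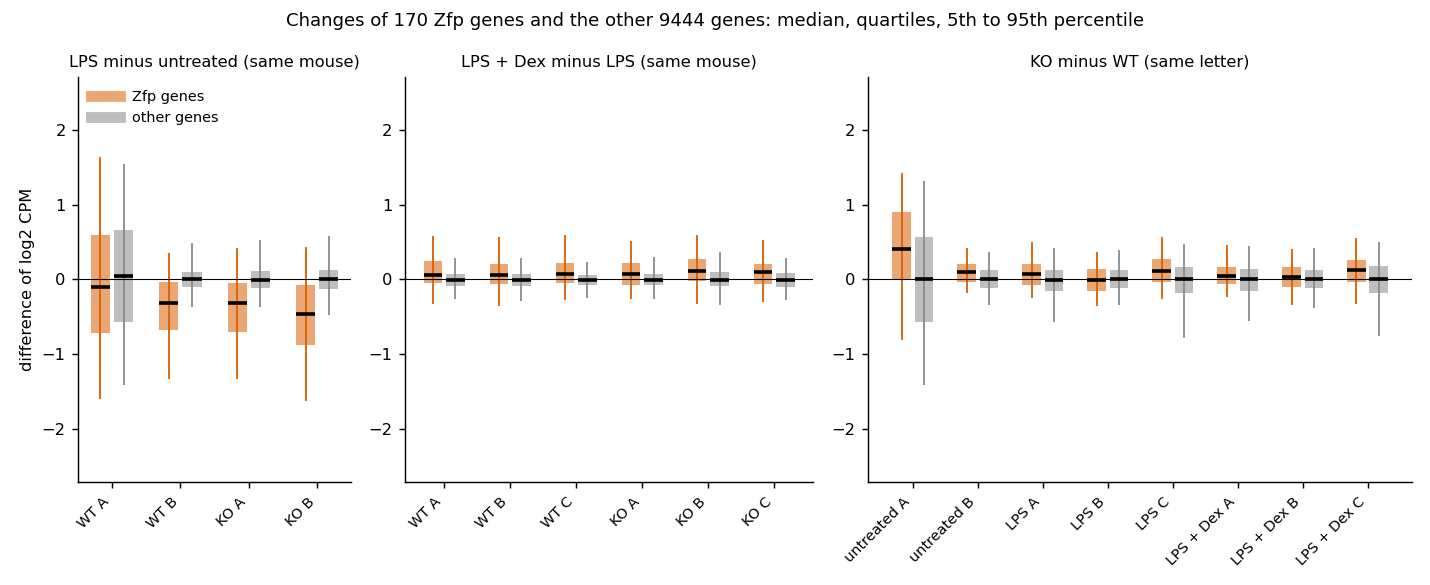
Distribution over the 170 Zfp genes (orange) and the other genes (grey) of the difference of log2 CPM between libraries: LPS minus untreated and LPS + Dex minus LPS within each mouse, and KO minus WT between mice of the same letter. Black lines are medians, boxes span the quartiles and thin lines the 5th to 95th percentile. The medians of the Zfp genes lie below 0 with LPS in all 4 mice, from -0.10 to -0.46, and above 0 with Dex in all 6, from 0.06 to 0.11, and the boxes of both groups are widest where the untreated library of WT mouse A enters.

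With all libraries, the members that fell were of low to middle level. The level was taken from untreated libraries of the other genotype, which are not in the comparison (both KO libraries for the WT, that of WT mouse B for the KO). Up to 3 log2 CPM, 32.7% of 52 Zfp genes fell in the WT and 22.2% of 63 in the KO, against 4% and 2% of the other genes in that range. From 3 to 5 log2 CPM, 25.6% of 90 and 25% of 80 fell, against 4.21% and 1.5%. Above 5 log2 CPM, 0 of 28 and 0 of 27 fell, against 1.44% and 0.187%. Without the untreated library of WT mouse A the WT shares were 11.5%, 23.3% and 7.14%, against 1.1%, 1.45% and 0.542% of the other genes. By the mean over all 16 libraries, which a fall with LPS itself lowers, 36.8%, 17.6% and 0% fell in the WT and 31.6%, 14.7% and 0% in the KO. The shares of the Zfp genes were thus above those of other genes of like untreated level up to 5 log2 CPM. Above that level this held only in the WT without the untreated library of mouse A, and for few genes.

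The KRAB members held most of the decreases. Of the 77 Zfp genes with the KRAB pattern, 27 fell in the WT (35.1%) and 22 in the KO (28.6%), with median changes of -0.41 and -0.60. Of the 76 members with 3 or more fingers and no KRAB pattern, 13 and 12 fell (17.1% and 15.8%), with medians of -0.20 and -0.21. Of the other 17 members 0 fell, 2 rose in the WT and 1 in the KO, with median changes of -0.03 and -0.13. The 122 genes of the table with 3 or more C2H2 fingers and another name had 13 that fell and 13 that rose in the WT. In the KO 17 of them fell and 7 rose. Over all genes 3.14% fell and 6.01% rose in the WT, and 1.24% and 3.08% in the KO. Without the untreated library of WT mouse A, 15 KRAB members (19.5%) and 14 of the other multi-finger members (18.4%) fell in the WT, with median changes of -0.49 and -0.24. The shares called then differed little between these classes and the medians as before. In the KO with the animal as a block, 37 KRAB members (48.1%) and 18 others with 3 or more fingers (23.7%) fell. No difference between the classes was tested.

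**Figure D2:**
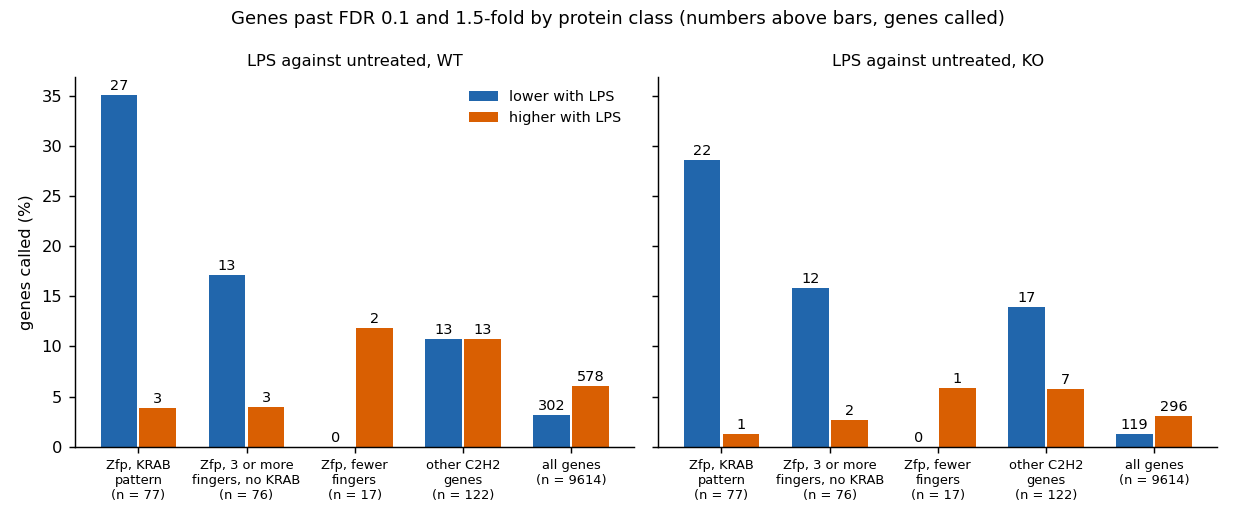
Share of genes called lower (blue) or higher (orange) with LPS against untreated, in % of each class, in the WT (left) and the NELF-B KO (right), with the number of genes called above each bar. The KRAB members have the tallest blue bars, 35.1% in the WT and 28.6% in the KO, against 3.14% and 1.24% over all genes.

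Of the 40 members that fell in the WT, 27 also fell in the KO, which is 67.5% of the WT list and 79.4% of the KO list. These comparisons share no library, but they are not fully independent. The LPS libraries of mice with the same letter deviated together across the genotypes (r over the members of 0.38 to 0.74). All 40 had a change below 0 in the KO, with a median of -0.99, and all 34 of the KO list had one below 0 in the WT, with a median of -0.92. Without the untreated library of WT mouse A, 24 of the 29 that fell in the WT also fell in the KO (82.8% of the WT list and 70.6% of the KO list). In both genotypes together 47 members fell in at least 1 genotype. Of these, 32 (68.1%) had the KRAB pattern, against 42 of the 114 members called in neither direction (36.8%). Without that library 39 members fell in at least 1 genotype, of which 23 (59%) had the KRAB pattern. The median number of fingers was 12 against 9, the median number of exons was 4 against 6 and the median gene span 13.7 kb against 20.4 kb. The median transcript length, 3.47 kb against 3.53 kb, and the median number of ATTTA motifs in the part of the transcript after the stop codon, 2 in each, differed little or not at all. Across the 170 genes the change in the KO had a Spearman rho of 0.38 with the untreated level in WT mouse B, 0.40 with the number of exons and -0.36 with the number of fingers. The change in the WT had one of 0.27 with the untreated level in the KO, 0.34 with the exons and -0.13 with the fingers, and of 0.15, 0.28 and -0.33 without the untreated library of WT mouse A. Genes are not independent replicates, and they share the libraries.

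The decreases with the largest size were named by rule. Zfp472, a KRAB gene with 12 fingers (chromosome 17, 32965814 to 32979233, GRCm38, plus strand), stood at 3.38 and 3.34 log2 CPM in the untreated WT libraries and at 1.73, 1.3 and 1.46 with LPS. In the KO it was at 3.57 and 3.46 untreated and at 1.98, 1.20 and 1.97 with LPS. The untreated and LPS values did not overlap in either genotype, and the log2 change was -1.86 ± 0.24 (SE) in the WT (3.64-fold lower, limma, adjusted p = 0.000236) and -1.80 ± 0.24 in the KO (3.48-fold lower, adjusted p = 0.000325).

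Zfp553, with 12 fingers and no KRAB pattern (chromosome 7, 127233061 to 127238179), stood at 3.36 and 3.17 log2 CPM in untreated WT cells and at 1.38, 1.60 and 1.52 with LPS, and at 3.47 and 3.37 and then 1.73, 1.40 and 1.62 in the KO. All LPS values lay below all untreated values. The change was -1.76 ± 0.20 in the WT (limma, adjusted p = 5.72e-05) and -1.84 ± 0.20 in the KO (adjusted p = 4.29e-05).

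Zfp157, a KRAB gene with 11 fingers on chromosome 5, went from 2.71 and 3.13 log2 CPM to 1.14, 1.10 and 0.80 in the WT, and from 3.12 and 3.10 to 1.70, 0.84 and 1.70 in the KO. Its change of -1.91 ± 0.32 in the WT was the largest decrease of a member there (limma, adjusted p = 0.002), and that in the KO was -1.70 ± 0.32 (adjusted p = 0.0058). Zfp870, a KRAB gene with 10 fingers on chromosome 17 and the member with the fewest reads, went from 1.99 and 2.04 to 0.50, 0.51 and 0.05 in the WT and from 2.28 and 2.39 to 0.78, 0.13 and 0.65 in the KO. Zfp623, a gene on chromosome 15 with 12 fingers and no KRAB pattern, fell by 1.62 and 1.73 on the log2 scale, the KRAB gene Zfp748 by 1.44 and 1.74 and the KRAB gene Zfp60, with 19 fingers, by 1.32 and 1.73 in the WT and the KO. These 7 members passed the test in both genotypes.

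The remaining decreases of this kind were called in 1 genotype. The KRAB gene Zfp709 fell in the KO (-1.43 ± 0.33, limma, adjusted p = 0.024), and its change in the WT was -0.85 ± 0.33 (adjusted p = 0.132, and 0.0784 with the animal as a block). Zfp688 was at 4.37 log2 CPM in the untreated library of WT mouse A but at 2.60 in that of mouse B, and its change in the WT moved from -1.51 (adjusted p = 0.0351) to -0.62 (adjusted p = 0.411) without the former. Without the LPS library of WT mouse A it was -1.48 (adjusted p = 0.102). Without the LPS library of WT mouse C the change of Zfp60 in the WT was -1.01 (adjusted p = 0.107), and without the untreated library of KO mouse B that of Zfp709 in the KO was -1.26 (adjusted p = 0.309).

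The members that rose were few. Zfp131, which encodes a BTB-domain zinc finger factor (chromosome 13, 119765187 to 119790889, minus strand), stood at 3.61 and 4.36 log2 CPM in untreated WT libraries and at 6.40, 5.87 and 6.33 with LPS. In the KO it went from 4.48 and 4.57 to 6.57, 6.47 and 6.14. The untreated and LPS groups were far apart in both genotypes, and the change was 2.22 ± 0.24 in the WT (4.65-fold, limma, adjusted p = 4.68e-05) and 1.87 ± 0.24 in the KO (3.66-fold, adjusted p = 0.000219).

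Zfp263 (chromosome 16, 3744093 to 3750790, plus strand) went from 6.00 and 6.20 log2 CPM to 7.61, 7.36 and 7.44 in the WT and from 6.72 and 6.27 to 7.96, 7.76 and 7.69 in the KO. All its LPS values lay above all untreated ones, with changes of 1.37 ± 0.16 (limma, adjusted p = 8.48e-05) and 1.31 ± 0.16 (adjusted p = 0.000136). Zfp131 and Zfp263 are also the only members of the table that the study's list of LPS-induced and Dex-repressed genes names, and as that list was chosen on libraries of this series, it is not independent evidence of their direction.

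Zfp719, a KRAB gene with 13 fingers on chromosome 7, went from 1.62 and 3.02 log2 CPM to 4.45, 4.33 and 4.21 in the WT, and from 2.97 and 3.14 to 4.37, 4.40 and 4.07 in the KO. It rose by 2.01 ± 0.29 in the WT (limma, adjusted p = 0.000632) and by 1.23 ± 0.29 in the KO (adjusted p = 0.0286). The WT value without the untreated library of mouse A was 1.31. In the KO the call was lost without either untreated library or without the LPS library of mouse A or B, with changes of 1.14, 1.31, 1.18 and 1.17 and adjusted p of 0.27, 0.151, 0.101 and 0.109. Zfp800 was at -0.32 log2 CPM in the untreated library of WT mouse A, 2.09 in that of mouse B and 2.90 to 3.27 with LPS. Its change of 2.15 ± 0.47 in the WT (adjusted p = 0.0137) became 0.94 (adjusted p = 0.0371) without mouse A's library, and in the KO it was 0.85 ± 0.47 (adjusted p = 0.803).

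Zfp948, Zfp608, Zfp704 and Zfp658 passed the test in the WT with changes of 1.29, 0.86, 0.83 and 0.60, but not without the untreated library of WT mouse A, where their adjusted p were 0.486, 0.673, 0.725 and 0.405. Each of these 4 calls was also lost without the LPS library of mouse A (0.212, 0.268, 0.245 and 0.233) or of mouse C (0.187, 0.155, 0.173 and 0.169), and those of Zfp608 and Zfp704 without that of mouse B (0.103 and 0.11). In the KO none of them passed. Zfp703, which encodes a transcriptional cofactor in which no C2H2 finger was found, rose in the KO, from 6.20 and 6.42 log2 CPM to 7.12, 6.98 and 7.21 (0.80 ± 0.18, limma, adjusted p = 0.0222). The change was 0.68 (adjusted p = 0.296) without the untreated library of KO mouse A. In the WT the change of Zfp703 was 0.54 ± 0.18 (adjusted p = 0.092), which is under 1.5-fold.

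**Figure D3:**
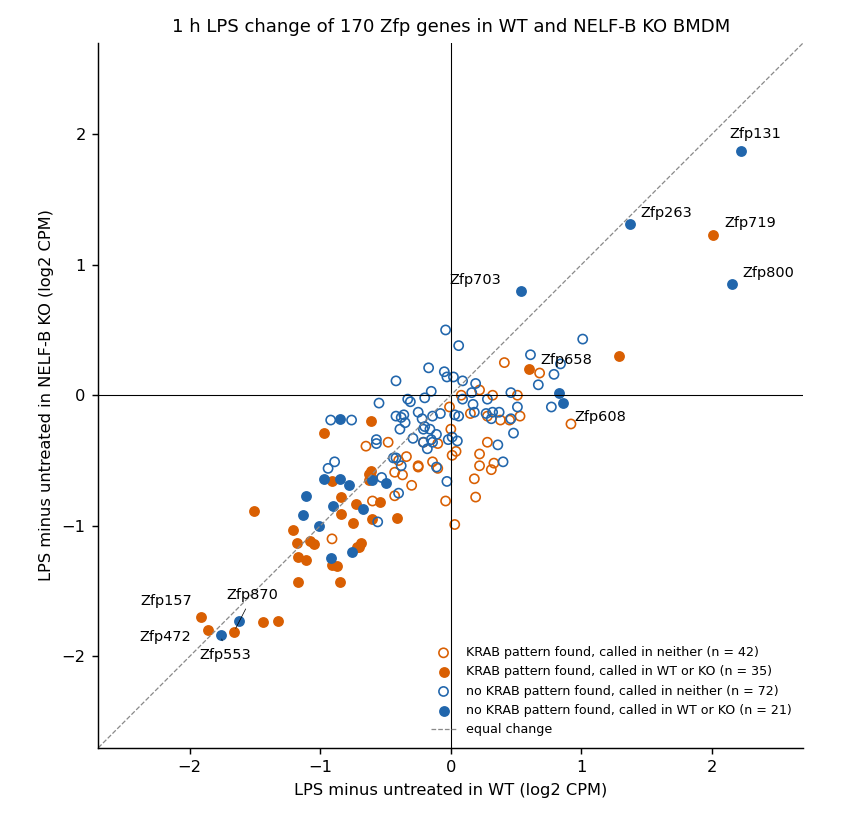
Difference of group means of log2 CPM, LPS minus untreated, for each of the 170 Zfp genes in the WT (x axis) and the NELF-B KO (y axis), with genes that carry the KRAB pattern in orange and the others in blue, and filled points for genes called in at least 1 genotype. Points in the lower left fell in both genotypes, down to about -1.9 (Zfp157, Zfp472, Zfp553), and Zfp131, Zfp263, Zfp719 and Zfp800 stand apart in the upper right.

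**Figure D4:**
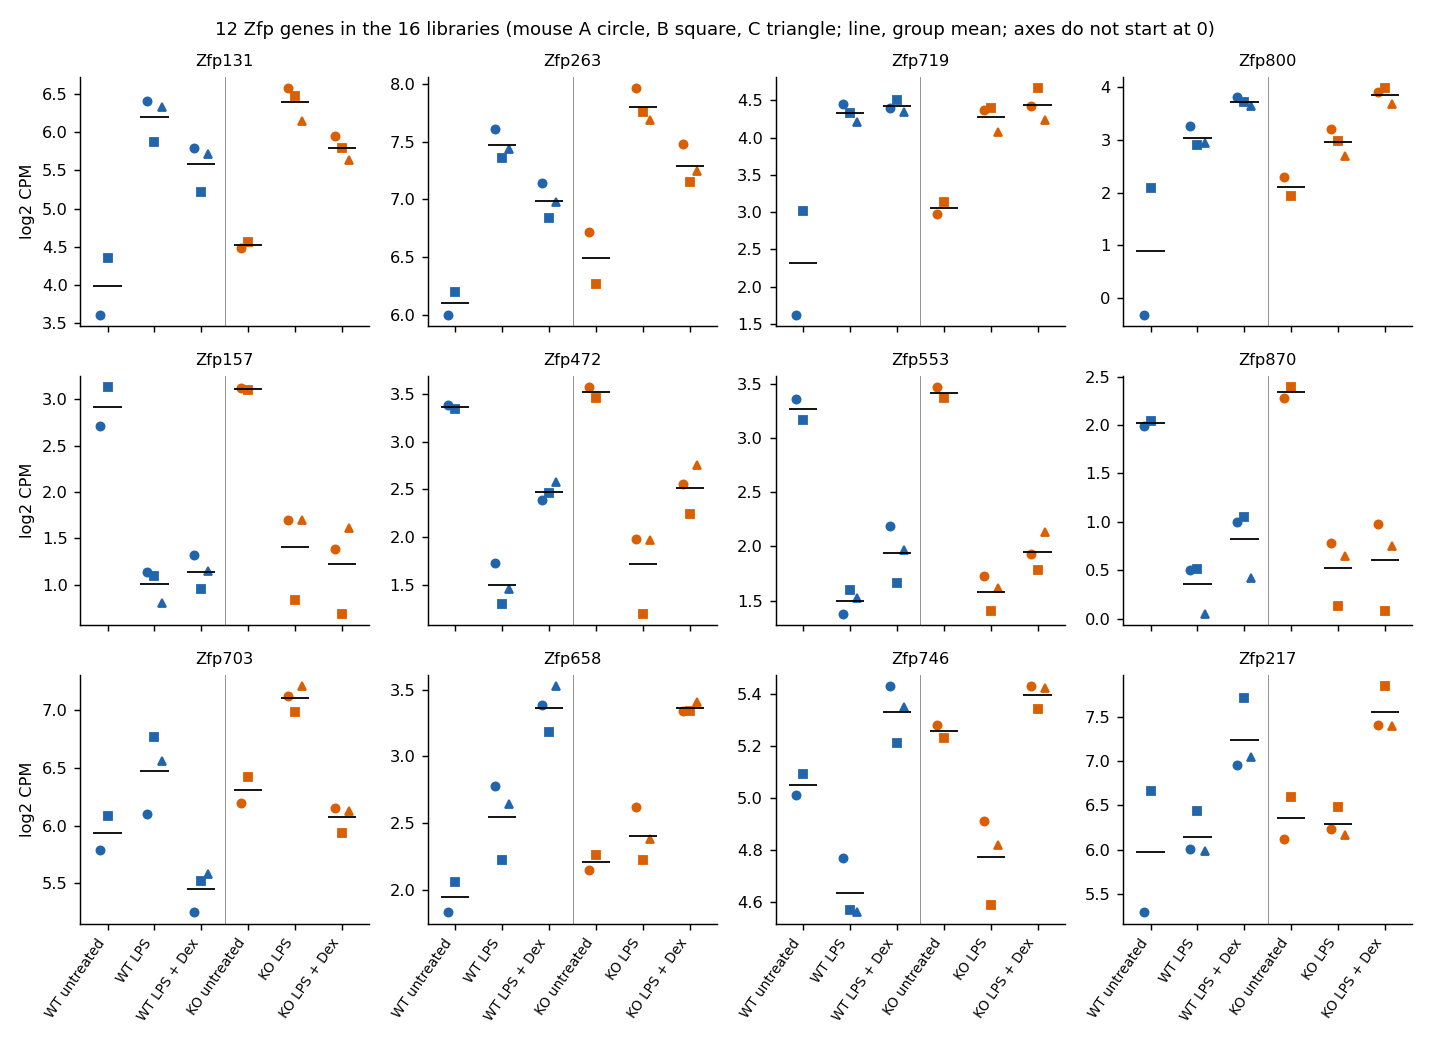
Values in log2 CPM of 12 Zfp genes named in the text in each of the 16 libraries, by group (x axis), in the WT (blue) and the NELF-B KO (orange), with a line at each group mean. The LPS and untreated values of Zfp131, Zfp263, Zfp157, Zfp472, Zfp553 and Zfp870 do not overlap in either genotype, while Zfp719 and Zfp800 have 1 low value in the untreated library of WT mouse A.

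The promoters of some members called with LPS are shown as a description of their letters. RefSeq promoters (GRCm38.p6) were found for 140 of the 170 members. Below are the 250 bases before the start of 4 raised and 2 lowered members, 5′ to 3′ on the strand of the gene, with the motifs CCAAT (the CCAAT box), CCGGAAG (bound by ETS factors) and GCGCATGC (bound by NRF1) in capitals on either strand. Overlapping copies of GCGCATGC on both strands make the longer capital runs.
Zfp131, chr13:119790733-119790982, minus strand: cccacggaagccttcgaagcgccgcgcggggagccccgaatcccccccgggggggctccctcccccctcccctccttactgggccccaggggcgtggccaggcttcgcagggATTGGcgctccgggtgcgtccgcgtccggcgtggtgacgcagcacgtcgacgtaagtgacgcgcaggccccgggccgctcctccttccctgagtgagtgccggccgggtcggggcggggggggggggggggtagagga
Zfp263, chr16:3743849-3744098, plus strand: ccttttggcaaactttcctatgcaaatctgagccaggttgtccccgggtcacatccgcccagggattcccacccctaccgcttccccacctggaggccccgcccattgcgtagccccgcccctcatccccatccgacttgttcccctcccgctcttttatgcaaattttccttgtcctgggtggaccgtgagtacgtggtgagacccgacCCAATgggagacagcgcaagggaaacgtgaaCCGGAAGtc
Zfp719, chr7:43579336-43579585, plus strand: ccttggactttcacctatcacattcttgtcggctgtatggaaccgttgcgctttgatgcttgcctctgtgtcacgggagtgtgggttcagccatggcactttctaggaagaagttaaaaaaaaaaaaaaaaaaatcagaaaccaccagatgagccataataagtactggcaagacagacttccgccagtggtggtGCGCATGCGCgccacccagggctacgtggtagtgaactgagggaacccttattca
Zfp658, chr7:43562120-43562369, plus strand: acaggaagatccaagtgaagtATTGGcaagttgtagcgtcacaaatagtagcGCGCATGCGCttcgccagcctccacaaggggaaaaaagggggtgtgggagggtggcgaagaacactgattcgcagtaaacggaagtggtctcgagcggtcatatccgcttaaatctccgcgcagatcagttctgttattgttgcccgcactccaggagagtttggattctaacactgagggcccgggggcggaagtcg
Zfp472, chr17:32965581-32965830, plus strand: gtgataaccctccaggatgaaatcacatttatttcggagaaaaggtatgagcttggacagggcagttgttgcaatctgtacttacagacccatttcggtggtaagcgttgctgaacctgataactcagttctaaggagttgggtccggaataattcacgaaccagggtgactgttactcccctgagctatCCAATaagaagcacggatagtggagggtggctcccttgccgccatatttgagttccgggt
Zfp553, chr7:127232811-127233060, plus strand: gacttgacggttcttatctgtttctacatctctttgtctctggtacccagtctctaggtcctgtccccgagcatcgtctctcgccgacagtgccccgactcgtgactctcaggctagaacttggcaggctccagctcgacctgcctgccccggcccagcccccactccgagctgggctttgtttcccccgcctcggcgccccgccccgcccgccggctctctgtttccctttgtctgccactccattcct

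For Zfp131 the start farther upstream of a pair in RefSeq is printed. GCGCATGC stood in the promoters of Zfp658, Zfp719 and Zfp800, 3 of the 6 raised members with a promoter, and in 0 of 39 lowered members with a promoter. It was found in 6.43% of all Zfp genes and in 5.72% of the genes of the table. The raised set is small and unstable. Zfp658 was not called without the untreated library of WT mouse A, and Zfp800 was called in the WT alone. Zfp658 and Zfp719 are neighbours on chromosome 7. CCAAT was found in 18 of 39 lowered members (46.2%), in 46.4% of all Zfp genes and in 40.2% of the genes of the table. CCGGAAG was found in 10 lowered members (25.6%), in 20.7% of all Zfp genes and in 17.8% of the table. GGNNTTTCC, a form of the NF-κB motif, was found in 4 lowered members (10.3%) and in 0 of the 6 raised ones, against 10% of all Zfp genes and 6.53% of the table. The AP-1 motif TGAGTCA was found in 1 lowered member, TGACGTCA, bound by CREB, and AAGATGGC, bound by YY1, in 0, and these 3 in 0 raised members. Over all RefSeq promoters of this length the shares were 2.56% for GCGCATGC, 37.5% for CCAAT, 7.83% for CCGGAAG, 5.62% for GGNNTTTCC, 5.16% for TGAGTCA, 1.77% for TGACGTCA and 1.83% for AAGATGGC. A match is a description of these letters and not a site.

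Neighbouring members were also compared. Runs of at least 4 members less than 500 kb apart were found in 8 regions of GRCm38. In the run on chromosome 7 from 127233061 to 127885996, which holds 9 members, among them Zfp553 and Zfp688, 6 fell in the WT and 4 in the KO, with median changes of -0.97 and -0.77. In the WT 5 fell, with a median change of -0.62, without the untreated library of mouse A. Only 3 of these 9 have the KRAB pattern. On chromosome 17, 8 members from 32765496 to 33631779, among them Zfp472 and Zfp870, held 4 that fell in the WT and 5 that fell in the KO, and without the untreated library of WT mouse A 2 in the WT, Zfp472 and Zfp870. The 12 members from 21008903 to 22867134 on the same chromosome, all with the KRAB pattern, held 1 and 2 that fell, 1 that rose in the WT, and median changes of 0.05 and -0.22, and without the untreated library of WT mouse A 2 that fell in the WT. Over chromosome 7 as a whole 16 of 44 members fell in the WT, 12 without that library, and 13 in the KO.

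Members were also grouped in 3 lists by known role. The lists are small, and at the shares of all genes given below few or none of their genes would pass. Their counts are thus not read as a trait of these roles. Of 7 factors of RNA and ribosomes, among them Zfp106, Zfp207, Zfp598 (a ubiquitin ligase that senses collided ribosomes) and Zfp622 (a factor of ribosome assembly), 0 passed the test in either genotype. Their median changes were -0.04 and -0.03. Of 15 chromatin, cofactor and signalling factors, among them Zfp143, Zfp148, Zfp217, Zfp281 and Zfp410, 0 passed in the WT and 1, Zfp703, in the KO, with median changes of 0.19 and -0.13, and of -0.14 in the WT without the untreated library of mouse A. Zfp281 went from 4.20 and 5.89 log2 CPM to 6.01, 6.26 and 5.89 in the WT, and passed there only with the animal as a block (1.08, limma, adjusted p = 0.048). Its change was 0.17 (adjusted p = 0.824) without the untreated library of mouse A. Of 4 KRAB members with known roles in retroelement silencing or imprinting, Zfp445, Zfp568, Zfp809 and Zfp932, 0 passed in either genotype. In the KO all 4 changes lay below 0 (median -0.46), as did those of 139 of the 170 members. In the WT the changes were 0.92, 0.33, 0.22 and -0.65, and without the untreated library of mouse A -0.29, -0.43, -0.38 and -0.20. Of the 13 genes of the KRAB corepressor list, among them Trim28, Setdb1 and the heterochromatin proteins Cbx1, Cbx3 and Cbx5, 0 passed in either genotype, with medians of 0.21 and -0.15, and of -0.02 in the WT without the untreated library of mouse A. In related families, 4 of 24 Zbtb genes fell and 2 rose in the WT and 3 and 0 in the KO. Of 13 Zkscan and Zscan genes, 4 fell in the WT and 5 in the KO and 0 rose. Over all genes 3.14% fell and 6.01% rose in the WT, and 1.24% and 3.08% in the KO. Decreases above the share of all genes were thus not confined to genes named Zfp.

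The second question was how Dex changed the Zfp genes in LPS-treated cells of the same animals. In the WT 3 members rose and 1 fell with Dex (limma, FDR under 0.1 and over 1.3-fold), where 0.666% of all genes were higher and 0.322% lower. In the KO 3 rose and 2 fell, where 0.832% and 0.447% of all genes were called. With the animal as a block 6 rose and 3 fell in the WT (1.37% and 1.22% of all genes) and 4 rose and 4 fell in the KO (1.57% and 1.45%). Fitted to the 6 libraries of a comparison alone, 1 rose and 0 fell in the WT (0.458% and 0.291% of all genes) and 4 rose and 1 fell in the KO (1.1% and 0.749%). The shift over all members was small but had the same sign in every mouse. The median change in the 3 WT mice was 0.06, 0.06 and 0.07 and that in the 3 KO mice was 0.07, 0.11 and 0.10, against -0.01 to 0.00 over all genes. In all 6 mice 41 members (24.1%) were higher with Dex, where 9.16% of all genes were, and 11 (6.47%) were lower, where 10.4% of all genes were. The KRAB members had median changes of 0.15 (WT) and 0.16 (KO), the other members with 3 or more fingers of 0.04 and 0.03.

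The changes with LPS and with Dex within a genotype share the LPS libraries, so that they are not compared gene by gene. The median level of the 47 members that fell with LPS was 3.01 log2 CPM untreated, 2.04 with LPS and 2.35 with LPS + Dex in the WT, and 3.13, 2.19 and 2.32 in the KO. As these 47 were chosen for low values in the same LPS libraries, the step from LPS to LPS + Dex is no evidence of a Dex effect. Across the genotypes no library is shared, though mice of the same letter deviated together. The 40 members that fell with LPS in the WT had a median Dex change of 0.21 in the KO, and the 34 that fell in the KO had one of 0.25 in the WT. The 29 that fell in the WT without the untreated library of mouse A had one of 0.17 in the KO. The medians over all members were 0.09 and 0.07. Over the 76 members with a mean of up to 3 log2 CPM they were 0.15 and 0.15, and the KRAB members also lay above all members. Whether the members that fell with LPS differ with Dex from members of like level and class was not tested.

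Zfp703 was the member with the largest decrease with Dex. It went from 6.10, 6.77 and 6.56 log2 CPM with LPS to 5.25, 5.52 and 5.58 with LPS + Dex in the WT, and from 7.12, 6.98 and 7.21 to 6.15, 5.94 and 6.13 in the KO. It was lower in 6 of 6 mice, by 1.03 ± 0.16 on the log2 scale in both genotypes (limma, adjusted p = 0.00847 and 0.00689). Its relative Zfp503, also a transcriptional cofactor, fell by 0.95 ± 0.21 in the KO (adjusted p = 0.0588). In the WT Zfp503 went from 2.35, 2.66 and 2.89 log2 CPM to 2.06, 1.88 and 2.17 (adjusted p = 0.637). Zfp263 had changes of -0.48 and -0.51, which passed only with the animal as a block (adjusted p = 0.0513 and 0.0369), as did Zfp710 with -0.38 and -0.46 (adjusted p = 0.0714 and 0.0254). Zfp131 had changes of -0.62 and -0.61 that did not pass in either fit (adjusted p = 0.615 and 0.569, and 0.411 and 0.399 with the block).

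Zfp746, which encodes the repressor PARIS, rose with Dex from 4.77, 4.57 and 4.56 log2 CPM to 5.43, 5.21 and 5.35 in the WT and from 4.91, 4.59 and 4.82 to 5.43, 5.34 and 5.42 in the KO. The groups did not overlap, and the changes were 0.70 ± 0.11 (limma, adjusted p = 0.00704) and 0.62 ± 0.11 (adjusted p = 0.0117). Its changes with LPS alone, -0.42 and -0.48, were under 1.5-fold. The KRAB gene Zfp658 rose by 0.82 ± 0.17 in the WT and 0.95 ± 0.17 in the KO (adjusted p = 0.0442 and 0.0156), with values of 2.22 to 2.78 log2 CPM with LPS and 3.18 to 3.53 with LPS + Dex over both genotypes.

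Zfp217, a subunit of CoREST and CtBP corepressor complexes, went from 6.01, 6.44 and 5.98 log2 CPM to 6.95, 7.71 and 7.05 in the WT and from 6.23, 6.48 and 6.16 to 7.41, 7.85 and 7.40 in the KO. It was higher in 6 of 6 mice. The change of 1.27 ± 0.30 in the KO passed (limma, adjusted p = 0.0941), and that of 1.10 ± 0.30 in the WT passed only with the animal as a block (adjusted p = 0.236, and 0.00628 with the block). Zfp472, which LPS lowered, went from 1.73, 1.3 and 1.46 log2 CPM to 2.39, 2.46 and 2.58 in the WT (0.98 ± 0.22, adjusted p = 0.0707). Its change in the KO was 0.81 ± 0.22 (adjusted p = 0.17, and 0.0247 with the block). The calls of Zfp472 in the WT and of Zfp217 and Zfp503 in the KO were lost without any 1 of the 6 libraries compared, with adjusted p of 0.108 to 0.322, 0.215 to 0.428 and 0.104 to 0.283. The call of Zfp658 in the WT was lost without the LPS library of mouse B or C or the LPS + Dex library of mouse A or C, with adjusted p of 0.126 to 0.233.

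The third question was whether the loss of NELF-B changed the Zfp genes. No member passed the test of KO against WT (limma, FDR under 0.05 and over 1.5-fold) in untreated, LPS-treated or LPS + Dex-treated cells, where 0.0104%, 0.146% and 0.114% of all genes did. With the letter of the mice as a block the count of members was also 0 in each, where 0.0312%, 0.915% and 1.38% of all genes passed, and voom on the recovered reads called 0 members as well. At an unadjusted p under 0.05, 26 members differed in untreated cells (15.3%, against 15.2% of all genes), all higher in the KO. In LPS-treated cells 4 did (2.35%, against 6.92%) and in LPS + Dex-treated cells 5 (2.94%, against 7.93%), again all higher in the KO. These shares were near or below those of all genes, whose split by direction is not given here. The counts and their direction are thus not read as a property of the members.

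The size of the untreated difference depended on WT mouse A. The median difference of the members was 0.27, and 68 of them (40%) had both KO values above both WT values, where 15.7% of all genes did, and 4 (2.35%) had both below, where 13.8% did. Between mice of the letter A the median difference was 0.40 and between those of the letter B it was 0.10. Without the untreated library of WT mouse A the median was 0.12 and 3 members had a p under 0.05 (1.76%, against 3.54% of all genes), and with this library as the lone untreated WT one, 69 members passed (40.6%, against 40.7% of all genes), 58 of them higher in the KO (34.1%, against 21.1%) and 11 lower (6.47%, against 19.6%). Zfp445, a KRAB factor of genomic imprinting, shows this, at 2.54 log2 CPM in the untreated library of WT mouse A, 4.97 in that of WT mouse B, and 5.01 and 5.03 in the KO. Without the untreated library of WT mouse A, 28.2% of the members and 48.6% of all genes had an untreated difference below 0. The KRAB members then had a median of 0.18. A smaller shift toward the KO thus remained, resting on a lone untreated WT library. With LPS and with LPS + Dex the median differences were 0.07 and 0.07. All 3 KO values lay above all 3 WT values for 10 members (5.88%, against 5.91% of all genes) with LPS and for 13 (7.65%, against 8.93%) with LPS + Dex, and below them for 4 (2.35%, against 7.82%) and 5 (2.94%, against 8.83%).

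Zfp703 had the smallest adjusted p of the members in treated cells. It was higher in the KO by 0.62 ± 0.16 with LPS (adjusted p = 0.17, and 0.0614 with the block) and by 0.62 ± 0.16 with LPS + Dex (adjusted p = 0.149, and 0.0508 with the block), and the values of the genotypes did not overlap in either treatment. Zfp263 was higher in the KO by 0.33 ± 0.14 and 0.30 ± 0.14 (adjusted p = 0.627 and 0.638), also without overlap. The values of Zfp131, Zfp157, Zfp472, Zfp553 and Zfp870 overlapped between the genotypes with LPS.

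The responses of the genotypes were compared through the interaction terms. For LPS, 0 members and 0% of all genes passed an FDR under 0.1. A p under 0.05 was found for 5 of the 170 members, a share near the 2.3% of all genes. The median difference of the LPS change, KO minus WT, was -0.19 over the members, and -0.05 without the untreated library of WT mouse A. With that library as the lone untreated WT one, 68 members passed (40%, against 48.5% of all genes). For Dex, 0 members and 0% of all genes passed, 0 members had a p under 0.05, and the median difference was 0.01. For Zfp703 the Dex change differed by less than 0.01, with an SE of 0.23, between the genotypes, and for Zfp217 by 0.17 ± 0.43.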

How the data were processed

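Polyadenylated RNA of 16 BMDM libraries in 6 groups was sequenced. The authors aligned 50 bp paired reads to mm10 in CLC Bio Genomic Workbench. From reads unique to the exons of a gene, normalized by the authors in edgeR with a weighted trimmed mean, they deposited log2 CPM of 9614 genes. The versions and the filter on genes are not given in the sources used here. The deposited p-values and FDR of the authors' own pairwise comparisons were not used. Every per-sample column was used (0 left out). Near-identical copies within the family can lose reads to the rule of unique reads, so that levels of close copies are uncertain.

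As the authors deposited log2 CPM rather than counts, limma 3.58.1 under R 4.3.3 was fitted to them (6 group means, eBayes with a trend, all 16 libraries), with Benjamini-Hochberg adjustment over all genes and no pseudocount or filter. Thresholds followed the study. Other steps used Python 3.11.15, numpy 2.4.6 and pandas 2.3.3. The fit was checked on simulated libraries. These held no animal or run effect and no outlying library, so the check does not show how the fit behaves under those. A step of the low CPM values was taken as 1 read, and 100% of the values under 3 CPM then came out within 0.1 of a whole read in every library.

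The labels give the mouse of each library. Same-mouse libraries deviated together from their group means (r over all genes of 0.78 to 0.94 for LPS and LPS + Dex, and, for untreated with LPS, 0.45 among WT and 0.87 among KO libraries). Over the members alone r was 0.53 to 0.85 for LPS and LPS + Dex. For untreated with LPS it was 0.59 in the KO but 0.02 in the WT, where the members thus showed no such pairing. The pairing by animal comes from the labels. Mice that share a letter across genotypes are different animals, yet also deviated together. Over all genes r was 0.44 to 0.68 with LPS, 0.48 to 0.76 with LPS + Dex and 0.35 untreated. The animal and a shared run or day thus cannot be told apart. The letters B and C join mice that share a printed date or run label, and the letter A the remaining mice. Nothing says more of how the cultures were kept apart, so p-values measure the spread between these samples.

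C2H2 fingers were counted as C, 2 to 4 residues, C, 12 residues, H, 3 to 5 residues, then H or C, in the longest coding transcript of GENCODE vM21. The KRAB pattern was set on known KRAB boxes and widened after looking at protein sequences. The members and lists were chosen with earlier results of these data known. Named were the members in the study's list of genes, of which 2 of 3 are in the table (Zfp558 is not analysed here), the 5 of highest level and of highest level per kb, up to 8 called members per comparison and direction by size of change, and members with known roles in 3 lists. The bins of level, by mean and then by untreated level, the list without the untreated library of WT mouse A and the runs of neighbours were added after the data were seen. Alternatives were the replicate block, only the groups compared, a filter on mean log2 CPM above 1, log2(CPM + 1), median centring, voom on recovered reads, unadjusted p under 0.01 (0.05 for the genotypes), and each library left out in turn.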

Additional observations from a re-analysis of the deposited data

Results flagged for a closer look

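Among the members named by rule, Zfp608 and Zfp326 were marked because every WT mouse moved 1 way and every KO mouse the other. Members not named were not searched, and some of them split likewise. Zfp946, for example, had LPS changes of 0.84 and 0.24 in the WT and -0.20 and -0.19 in the KO. The share of all genes with such a split was not counted. The WT mice A and B had LPS changes of Zfp608 of 1.67 and 0.17, those of the KO -0.10 and -0.07, and the difference of the LPS response, KO minus WT, was -0.92 ± 0.41 (limma, adjusted p = 0.69). Its Dex change was -0.16, -0.29 and -0.12 in the WT mice and 0.11, 0.34 and 0.16 in the KO mice, a difference of 0.40 ± 0.37 (adjusted p = 1). For Zfp326, an RNA-binding factor, the LPS change was -0.11 and -0.02 in the WT and 0.24 and 0.17 in the KO, a difference of 0.23 ± 0.22 (adjusted p = 0.699). None of these 3 differences passed the test. Groups of 2 or 3 libraries were not searched for single outlying samples.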

How the results depend on the processing

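Of the members' log2 changes called by rule, 37 were refitted under 451 combinations with the alternatives, 379 stayed past their thresholds, 72 did not and 0 changed sign. With the replicate block, the WT count of members higher with LPS was 15 and the KO count lower was 55. With Dex it was 6 higher and 3 lower in the WT and 4 lower in the KO, and the block changed no other count by over 1.5 times. Fitted only to the groups compared, 2 members rose and 3 fell with LPS in the WT, 1 rose and 0 fell with Dex in the WT and 1 fell with Dex in the KO. For WT members higher with LPS, median centring gave 5 and voom 4. With unadjusted p, 5 rose and 2 fell with Dex in the WT, and the counts of KO against WT were 18 untreated, 1 with LPS and 2 with LPS + Dex. The shares of all genes past these unadjusted thresholds were not counted, so these counts are not read as a property of the members. Leaving out 1 library gave 4 to 41 members higher and 25 to 49 lower with LPS in the WT, 2 to 4 higher and 16 to 34 lower in the KO, 1 to 2 higher with Dex in the WT, 2 to 2 higher and 1 to 1 lower with Dex in the KO, 0 to 69 for untreated KO against WT and 0 to 68 for the difference in the LPS response, the upper values of the last pair and of both WT counts with LPS being those with only mouse A left among the untreated WT libraries. A lone library left in a group is assumed to vary like the other groups. The causes of these moves were not tested, except that smaller fits hold fewer samples.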
